A study of Mus musculus with 14 samples.

Results

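The 10 genes described here serve glucose uptake, glycolysis and the fate of its pyruvate in mouse embryonic stem cells (ESCs). They are the glucose transporters Slc2a1 and Slc2a3, the hexokinases Hk1 and Hk2, the phosphofructokinase subunits Pfkl and Pfkp, and triosephosphate isomerase Tpi1. The others are the lactate dehydrogenase subunits Ldha and Ldhb, and the pyruvate dehydrogenase kinase Pdk1. All 10 were chosen by name, with earlier results of these data known. They are 10 of the 25131 rows of the gene count table, and all 10 had enough counts to be tested. The RNA-seq compared 2 libraries of Rcor2 knockout (KO) ESCs with 2 libraries of wild-type (WT) ESCs. Both are on the C57BL/6 background, grown on gelatin in medium with serum, leukemia inhibitory factor, the MEK inhibitor PD0325901 and the GSK3 inhibitor CHIR99021. RCOR2 belongs to the CoREST corepressors, the partners of the histone demethylase LSD1. Its chromatin immunoprecipitation (ChIP) came from ESCs expressing HA-tagged RCOR2 (2 samples), with WT cells and mCherry-expressing cells as the negative controls (1 sample each). The sources used here give neither the number of KO clones nor the deleted part of Rcor2.

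Glycolysis turns glucose into pyruvate. Glucose enters through facilitative transporters, hexokinase traps it as glucose 6-phosphate, and phosphofructokinase makes the committed step. Lactate dehydrogenase interconverts pyruvate and lactate. Inside the mitochondrion, pyruvate dehydrogenase converts pyruvate to acetyl-CoA unless a kinase such as PDK1 switches the enzyme off. Several of these steps are served by isoforms from separate genes, and the mix of isoforms differs between cell types. Pluripotent stem cells are known for a high rate of glycolysis, and hypoxia-inducible factors and MYC proteins are known regulators of many of its genes.

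The promoter windows (250 bases before to 50 after a start) of 5 genes that rose or fell in KO, with and without an RCOR2 peak in the window, are shown with the matches to ACGTG and GCGTG, the core bound by hypoxia-inducible factors, on either strand in capitals. They are RefSeq sequences of GRCm38.p6, read 5′ to 3′ on the strand of the gene. Ldhb and Pfkp fell and have an RCOR2 peak overlapping the window, Pfkl and Slc2a1 rose and have one as well, and Ldha rose with none in the window of its upstream start. Their positions are chr6:142507908-142508207 on the minus strand for Ldhb, chr13:6648722-6649021 on the minus strand for Pfkp, chr10:78009758-78010057 on the minus strand for Pfkl, chr4:119108495-119108794 on the plus strand for Slc2a1, and chr7:46845554-46845853 on the plus strand for Ldha.
Ldhb: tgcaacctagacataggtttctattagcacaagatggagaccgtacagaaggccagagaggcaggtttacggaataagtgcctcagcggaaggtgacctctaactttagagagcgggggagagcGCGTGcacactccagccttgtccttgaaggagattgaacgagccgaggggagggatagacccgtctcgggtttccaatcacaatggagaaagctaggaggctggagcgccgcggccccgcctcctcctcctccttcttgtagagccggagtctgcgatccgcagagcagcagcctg
Pfkp: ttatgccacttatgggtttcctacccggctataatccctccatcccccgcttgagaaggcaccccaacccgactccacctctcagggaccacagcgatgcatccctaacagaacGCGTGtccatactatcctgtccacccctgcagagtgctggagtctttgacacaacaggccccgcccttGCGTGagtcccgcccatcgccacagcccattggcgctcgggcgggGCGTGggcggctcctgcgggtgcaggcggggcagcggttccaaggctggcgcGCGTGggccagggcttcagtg
Pfkl: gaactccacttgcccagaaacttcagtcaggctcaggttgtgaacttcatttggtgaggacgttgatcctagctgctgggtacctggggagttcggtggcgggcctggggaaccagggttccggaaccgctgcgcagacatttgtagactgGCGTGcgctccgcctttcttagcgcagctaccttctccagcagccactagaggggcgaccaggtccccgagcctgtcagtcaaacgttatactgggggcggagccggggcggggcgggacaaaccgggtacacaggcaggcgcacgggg
Slc2a1: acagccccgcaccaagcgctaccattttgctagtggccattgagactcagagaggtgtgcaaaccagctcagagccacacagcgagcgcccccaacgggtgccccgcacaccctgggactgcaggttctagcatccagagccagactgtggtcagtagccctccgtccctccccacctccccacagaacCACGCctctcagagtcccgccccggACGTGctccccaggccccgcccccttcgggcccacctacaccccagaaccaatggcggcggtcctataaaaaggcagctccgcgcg
Ldha (upstream start): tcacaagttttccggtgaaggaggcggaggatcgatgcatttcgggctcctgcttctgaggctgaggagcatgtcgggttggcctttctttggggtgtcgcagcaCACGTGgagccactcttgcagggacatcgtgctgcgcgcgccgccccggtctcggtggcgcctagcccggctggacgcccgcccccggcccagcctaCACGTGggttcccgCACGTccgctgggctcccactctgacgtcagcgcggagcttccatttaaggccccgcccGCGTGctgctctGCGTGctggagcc

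Depth was 2951498 and 1974865 counts in the KO libraries, and 2368804 and 1286393 counts in the WT libraries. Rcor2 itself was counted 157 and 103 times in the KO libraries and 193 and 107 times in the WT libraries, a log2 fold change of KO over WT of −0.59 (standard error, SE, 0.23) that was not called (edgeR, adjusted p = 0.0636), although it was when scaled by library size alone (−0.64; edgeR, adjusted p = 0.0466). Rcor2 was also called lower with the median of the nearest 50 tested genes removed (−0.77; edgeR, adjusted p = 0.0187). With the median of its whole chromosome removed it was not (−0.57; edgeR, adjusted p = 0.101). Without the deleted part known, the genotype is not checked by these counts. Of 8 markers of ESCs all 8 were tested, with a summed level of 3749 and 3764 counts per 1000000 counts (CPM) in KO and 3887 and 3666 CPM in WT. Within that sum, Nanog was called higher (log2 fold change 0.48) and Dppa5a lower (−0.47, a call lost without KO replicate 1, KO replicate 2 or WT replicate 1), and after the centring described below Sox2 (−0.72), Nanog (−0.44) and Dppa5a (−0.45) were called lower. Each of those 3 centred calls was lost without KO replicate 2 (−0.66 for Sox2, −0.38 for Nanog and −0.59 for Dppa5a), that of Nanog also without KO replicate 1 (−0.47), and that of Dppa5a also without KO replicate 1 (−0.33) or WT replicate 1 (−0.29). Markers of feeder fibroblasts summed to 18.6 and 12.6 CPM in KO and 17.7 and 28.2 CPM in WT, with none of the 8 at 0 in every library. Markers of primitive endoderm summed to 7.25 and 3.14 CPM in KO and 1.69 and 5.33 CPM in WT, with Foxa2 at 0. Markers of trophoblast summed to 70.4 and 61.2 CPM in KO and 91.1 and 144 CPM in WT. Its 2 tested members were called in opposite directions: Eomes at a log2 fold change of 3.30 (edgeR, adjusted p = 0.000132; 50 and 43 counts in KO, 3 and 4 in WT) and Tfap2c, which makes up most of the sum, at −1.44 (edgeR, adjusted p = 1.2e-05). Neural markers summed to 10.7 and 19.4 CPM in KO and 23.6 and 24.4 CPM in WT, with Dcx at 0. Their part in the results below was not tested. In bulk samples, fewer cells of a type and less RNA per cell cannot be told apart. Whole chromosomes were shifted between the groups, with a median log2 fold change of 0.92 on chromosome 6, 0.52 on chromosome 8, 0.48 on chromosome 3 and −0.49 on chromosome 11, and the 2 tested Y-linked genes were both lower in KO. Slc2a3, Hk2, Tpi1 and Ldhb lie on chromosome 6, and the other 6 genes lie on chromosomes with a median between −0.14 and −0.00. Each change is therefore given as measured and again with the median of its chromosome removed (centred).

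Of the 10 genes, 7 rose in KO, 2 fell and 1 was not called by edgeR's quasi-likelihood test (p adjusted over all genes tested, threshold 0.05), where 10.4% of the 10241 tested genes rose, 9.3% fell and 19.7% changed either way. The median log2 fold change of the 10 genes was 0.85, against −0.02 over all genes tested. Since the 10 genes were picked with earlier results of these data known, their difference from all genes was not tested. Centred on the chromosome, 6 were higher and 1 was lower, with a median of 0.68, where 6.28% of all tested genes were higher and 6.67% lower (12.9% either way). Off chromosome 6, 4 of 6 genes rose (Slc2a1, Pfkl, Ldha and Pdk1) and 1 fell (Pfkp), with a median of 0.66. On the chromosomes of those 6 genes, 5.04% to 6.72% of all tested genes of a chromosome rose and 6.22% to 7.91% fell. For all 10 genes both KO libraries stood on the same side of both WT libraries, as they did for 56.9% of all tested genes (28.1% with KO above and 28.8% with KO below). The summed level of the 10 genes was 4866 and 5560 CPM in KO and 2838 and 2516 CPM in WT.

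**Figure D1:**
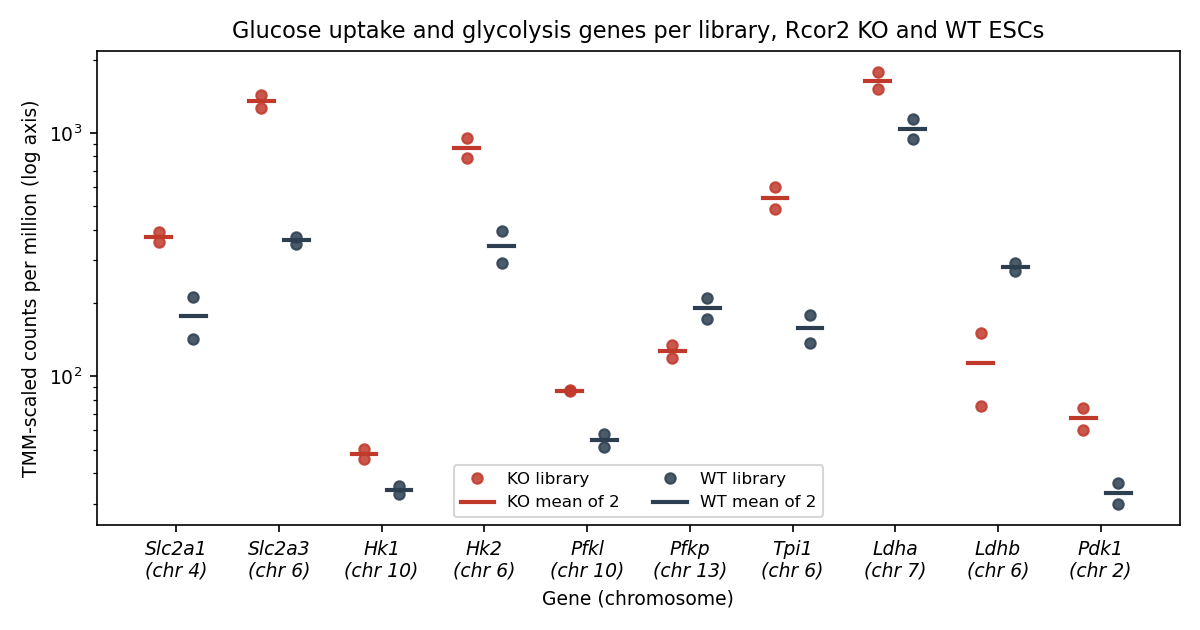
TMM-scaled CPM (log axis) of each gene in each library, KO left of WT, with a line at the mean of the 2 libraries. Both KO libraries lie above both WT libraries for 8 genes and below them for Pfkp and Ldhb.

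The glucose transporters both rose. Slc2a1 encodes GLUT1, the widely expressed transporter of basal glucose uptake, and lies at chr4:119108745-119137330 (GRCm38). It had 358 and 391 CPM in KO and 211 and 142 CPM in WT (1036 and 748 counts in KO, 500 and 187 in WT). The KO libraries were close to each other and clear of the WT libraries. The means were 374 ± 23.9 CPM in KO and 177 ± 48.3 CPM in WT (SD, n = 2 each), a 2.09-fold difference (log2 fold change 1.07, SE 0.17; edgeR, adjusted p = 1.61e-06). Removing the median of chromosome 4 left it at 1.07 (edgeR, adjusted p = 3.01e-06).

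Slc2a3 encodes GLUT3, a transporter of high glucose affinity best known from neurons, and lies at chr6:122727809-122802363. It was counted 3656 and 2738 times in KO and 832 and 490 times in WT, or 1262 and 1432 CPM in KO and 351 and 373 CPM in WT. The KO libraries thus stood far from both WT libraries, which were nearly level. The means were 1347 ± 121 CPM in KO and 362 ± 16.0 CPM in WT (SD, n = 2 each), 3.72-fold apart (log2 fold change 1.90, SE 0.15; edgeR, adjusted p = 1.66e-15). This was the highest fold change of the 10 genes. With the median of chromosome 6 removed it was 1.97-fold (log2 0.98, SE 0.14; edgeR, adjusted p = 1.04e-06), close to Slc2a1.

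The hexokinases, which phosphorylate glucose, both had higher values in KO, and Hk2 passed the test. Hk2, the inducible form (chr6:82725025-82774454), had 787 and 949 CPM in KO and 396 and 292 CPM in WT. No library crossed between the groups. The fold change was 2.51 (log2 1.33, SE 0.15; edgeR, adjusted p = 1.08e-09). Centred on chromosome 6 it was 0.41 on the log2 scale (SE 0.15) and missed the threshold (edgeR, adjusted p = 0.0661), and it moved with the libraries used: 0.17 without WT replicate 2, 0.30 without KO replicate 2 and 0.53 without KO replicate 1, none of them called, and 0.67 without WT replicate 1, which was called (edgeR, adjusted p = 0.00019). Hk1, the constitutive form (chr10:62268855-62379920), had 50.0 and 45.5 CPM in KO and 35.4 and 32.8 CPM in WT. Its groups did not overlap, but the difference was not called (log2 fold change 0.48, SE 0.29; edgeR, adjusted p = 0.256; centred 0.50, adjusted p = 0.285). Its counts were low, between 43 and 145 per library.

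The phosphofructokinase subunits moved in opposite directions. The enzyme is a tetramer of liver (Pfkl), platelet (Pfkp) and muscle (Pfkm) type subunits that differ in their regulation. Pfkl (chr10:77986947-78009807) had 86.6 and 87.9 CPM in KO and 58.2 and 51.0 CPM in WT. It rose 1.59-fold (log2 0.67, SE 0.23; edgeR, adjusted p = 0.0313; centred 0.68, adjusted p = 0.0383). Pfkp (chr13:6579874-6649060) had 119 and 134 CPM in KO and 172 and 210 CPM in WT. It fell by 0.59 on the log2 scale (SE 0.18; edgeR, adjusted p = 0.0126), and WT was 1.51 times as high as KO. Both calls were near the threshold. That of Pfkl was lost when any 1 of the 4 libraries was left out (log2 0.58 to 0.79). That of Pfkp was lost without KO replicate 1 (−0.51), KO replicate 2 (−0.68) or WT replicate 2 (−0.45). Centred on chromosome 13, Pfkp was at −0.45 and not called (edgeR, adjusted p = 0.0876). DESeq2 called neither gene (adjusted p = 0.115 for Pfkl and 0.0581 for Pfkp).

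Tpi1, which interconverts the triose phosphates made by aldolase, rose 3.40-fold. This gene of chromosome 6 (chr6:124810586-124814158) had 485 and 597 CPM in KO and 178 and 137 CPM in WT. The KO mean was 541 ± 79.0 CPM and the WT mean 158 ± 28.8 CPM (SD, n = 2 each; log2 fold change 1.77, SE 0.16; edgeR, adjusted p = 7.46e-13). Centred, 1.80-fold remained (log2 0.85, SE 0.16; edgeR, adjusted p = 0.000127).

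The lactate dehydrogenase subunits also moved in opposite directions. Ldha encodes the M subunit, which favours the reduction of pyruvate to lactate, and lies at chr7:46842274-46855627. Its level was 1507 and 1773 CPM in KO and 1135 and 948 CPM in WT. It rose 1.57-fold (log2 0.65, SE 0.14; edgeR, adjusted p = 0.000482; centred 0.67, adjusted p = 0.000572), a call that was lost without KO replicate 2 (0.53; edgeR, adjusted p = 0.106). Ldhb encodes the H subunit, which favours the oxidation of lactate, and lies at chr6:142490249-142507957. It was counted 438 and 144 times in KO and 645 and 384 times in WT, or 151 and 75.3 CPM in KO and 272 and 293 CPM in WT. The KO libraries were far apart, yet both lay below WT. Ldhb fell by 1.29 on the log2 scale (SE 0.19; edgeR, adjusted p = 4.96e-07), and WT was 2.45 times as high as KO. Without KO replicate 1 it was at −1.90 and without KO replicate 2 at −0.90, and DESeq2 missed the threshold (adjusted p = 0.0507).

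Ldhb fell on a chromosome where most genes were higher in KO. Of the 502 tested genes of chromosome 6, 282 rose and 12 fell, and 2.39% had a lower fold change than Ldhb. Centred on that chromosome it was at −2.21 (SE 0.19; edgeR, adjusted p = 1.05e-13), so that WT was 4.64 times as high as KO. It was the 1 gene of the 10 called lower after centring.

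Pdk1, the kinase that phosphorylates and inactivates pyruvate dehydrogenase, rose 2.04-fold. At chr2:71873215-71903858, it had 60.4 and 74.3 CPM in KO and 29.9 and 36.6 CPM in WT, from 175 and 142 counts in KO and 71 and 48 counts in WT. The log2 fold change was 1.03 (SE 0.27; edgeR, adjusted p = 0.00404), and 1.10 centred (adjusted p = 0.00334). The call was lost without KO replicate 2 (0.87) and without WT replicate 1 (0.89; edgeR, adjusted p = 0.0542).

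**Figure D2:**
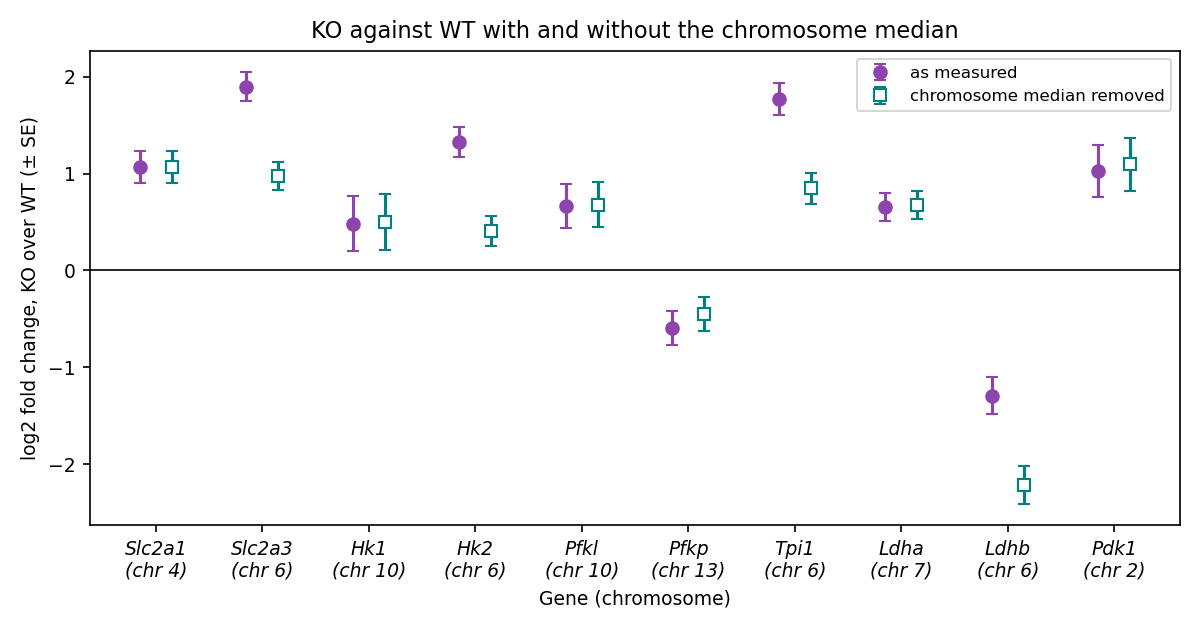
Log2 fold change of KO over WT with its standard error for each gene, as measured (filled circles) and with the median of its chromosome removed (open squares). Removal lowers Slc2a3 to 0.98, Tpi1 to 0.85 and Hk2 to 0.41, takes Ldhb to −2.21, and moves the genes off chromosome 6 little, Pfkp most, to −0.45.

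Within its chromosome, Slc2a3 had a higher fold change than 89.2% of the tested genes of chromosome 6, Tpi1 than 87.6% and Hk2 than 73.9%. The genes off chromosome 6 that rose also stood high in their own chromosomes: Pdk1 exceeded 95.1% of chromosome 2, Slc2a1 94.6% of chromosome 4, Pfkl 89.0% of chromosome 10 and Ldha 86.7% of chromosome 7. Hk1 exceeded 81.1% of chromosome 10, and Pfkp 20.9% of chromosome 13. The 2 tested genes nearest on each side were set beside each gene. They were not always close: on 1 side of Pfkp the nearest lies 2153906 bp away, and on 1 side of Slc2a1 480969 bp away. The neighbours of Slc2a3 had a median of −0.01: the pluripotency factor Nanog, 13176 bp away, rose by 0.48, and Dppa3, 97538 bp away, fell by 1.47, while Slc2a3 rose by 1.90. The call of Nanog was lost without either KO library (0.46 without replicate 1 and 0.51 without replicate 2), and with the median of chromosome 6 removed its direction turned, to −0.44 (edgeR, adjusted p = 0.0362). The neighbours of Ldhb had a median of 1.24 and ran from 0.15 to 3.77, all above Ldhb, with Cmas at 0.97 and St8sia1 at 3.77 called higher. The call of Cmas was lost without KO replicate 1 (0.88). Golt1b, the nearest to Ldhb at 76414 bp, was at 0.15 and not called. With the median of chromosome 6 removed, Golt1b was called lower, at −0.77 (edgeR, adjusted p = 0.0112). St8sia1 then remained higher, at 2.87 (edgeR, adjusted p = 0.00357), and Cmas was at 0.05 and not called. Around Tpi1 all 4 neighbours were called higher, with a median of 1.58, including Atn1 (2.76) and Usp5 (0.94), and around Hk2 the median was 0.99. Among the neighbours of Tpi1, Spsb2 (2.23), overlaps Tpi1, and its call was lost when any 1 library was left out (2.13 to 2.34). Pitrm1 likewise overlaps Pfkp (0.01, not called). Counts of overlapping genes are uncertain, since the strand setting is unknown here. On the other chromosomes the neighbour medians were 0.28 for Slc2a1, −0.18 for Hk1, 0.94 for Pfkl, −0.20 for Pfkp, 0.38 for Ldha and −0.19 for Pdk1. Dnmt3l, 32480 bp from Pfkl, rose by 2.60. With the median of the nearest 50 tested genes removed in place of the chromosome, Slc2a1 was at 0.96, Slc2a3 at 0.95, Pdk1 at 1.35 and Ldhb at −2.12. Pfkl then was at 0.49 and not called (edgeR, adjusted p = 0.164).

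**Figure D3:**
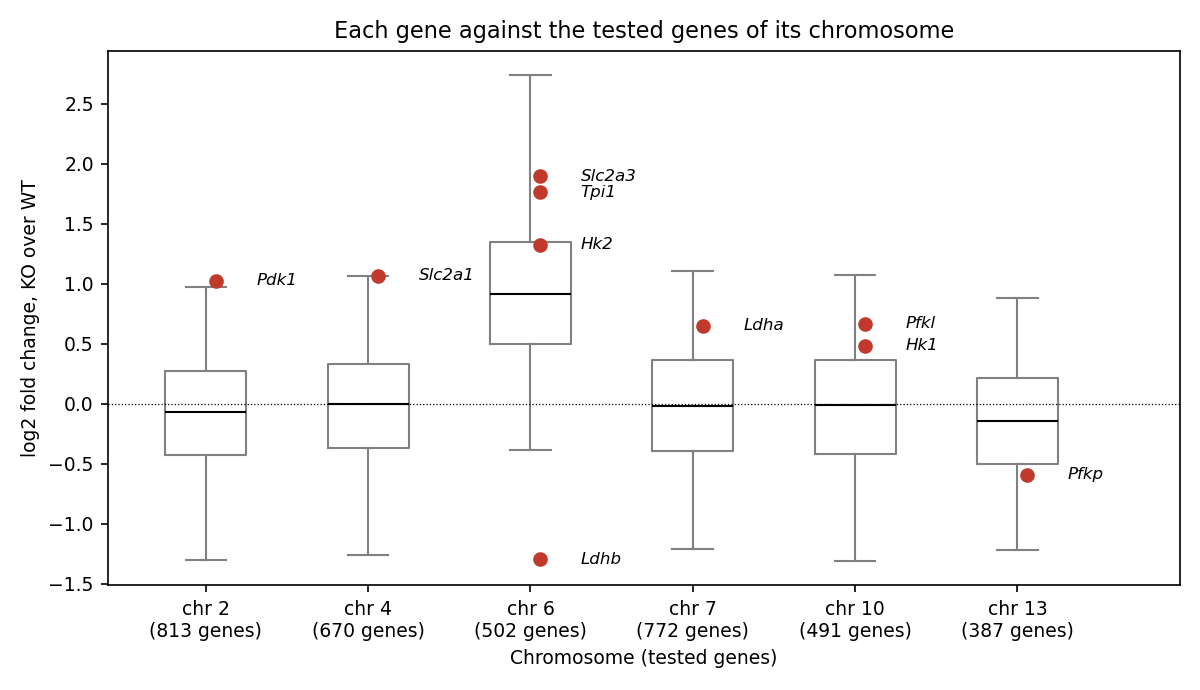
Log2 fold change of KO over WT of the 10 genes (points) against all tested genes of their chromosomes, with boxes over the quartiles, a line at the median and whiskers from percentile 5 to percentile 95. The median of chromosome 6 stands at 0.92, with Slc2a3, Tpi1 and Hk2 above it and Ldhb below the lower whisker, and the medians of the other chromosomes lie near 0.

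Isoform shares within a library do not depend on its depth. Each share is the part of the counts of a pair that came from its first gene. The counts are not per length, so a share is compared between libraries and is not the composition of the protein. Slc2a3 made up 77.9% (95% Wilson interval 76.7 to 79.1) and 78.5% (77.1 to 79.9) of the Slc2a1 and Slc2a3 counts in KO, and 62.5% (59.8 to 65.0) and 72.4% (68.9 to 75.6) in WT. The WT libraries thus differed from each other by more than their counting intervals. The mean difference was 10.8 percentage points, between 5.85 without WT replicate 1 and 15.8 without WT replicate 2. With the chromosome medians removed from KO it was −1.95 points, and the KO shares (65.1% and 65.9%) then lay between the WT shares.

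Hk2 made up 94.0% (93.0 to 94.9) and 95.4% (94.4 to 96.3) of hexokinase Hk1 and Hk2 counts in KO, and 91.8% (89.9 to 93.3) and 89.9% (86.7 to 92.4) in WT. This difference of 3.87 points became −0.453 points with the chromosome medians removed, where the KO shares (89.2% and 91.6%) overlapped the WT shares. Slc2a3 and Hk2 lie on chromosome 6 and Slc2a1 and Hk1 do not, so that the share differences of both pairs held the shift of that chromosome.

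The share of Pfkp in the Pfkl and Pfkp counts was 57.9% (53.9 to 61.8) and 60.4% (55.6 to 64.9) in KO, and 74.8% (71.0 to 78.2) and 80.5% (75.9 to 84.3) in WT. The difference was −18.5 points, and −16.3 points with the chromosome medians removed. Counted over all 3 subunits, with Pfkm, it was −13.2 points. Pfkm itself was counted 99 and 46 times in KO and 74 and 84 times in WT and was not called (log2 fold change −0.65; edgeR, adjusted p = 0.150).

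Ldhb made up 9.12% (8.33 to 9.96) and 4.08% (3.47 to 4.78) of the Ldha and Ldhb counts in KO, and 19.3% (18.0 to 20.7) and 23.6% (21.6 to 25.7) in WT. The mean share was 6.60% ± 3.56 in KO and 21.5% ± 3.01 in WT (SD, n = 2 each). The difference of −14.9 points was −17.9 points with the chromosome medians removed. As measured, the KO and WT shares did not overlap in any of the 4 pairs. Taken singly, 56.9% of all tested genes did not overlap between KO and WT in CPM. How often shares of other gene pairs do not overlap was not computed. An exact permutation test of 2 against 2 libraries cannot give a two-sided p below 0.333, so the shares were not tested.

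**Figure D4:**
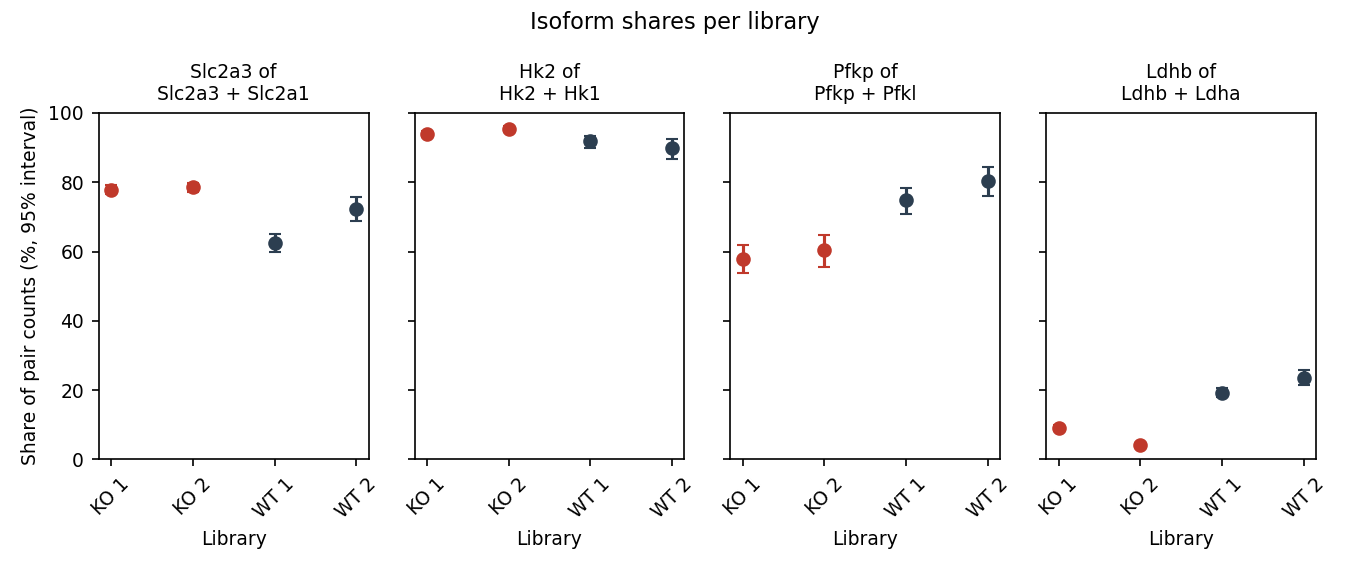
Share of the counts of each isoform pair in each library, KO left of WT, with 95% Wilson intervals that cover counting error only. The Pfkp and Ldhb shares are lower in both KO libraries (57.9% and 60.4% for Pfkp, 9.12% and 4.08% for Ldhb), and the Slc2a3 and Hk2 shares are higher.

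Of 101 other genes of glycolysis and its surroundings 68 were tested, of which 11 rose, 4 fell and 53 were not called, with a median log2 fold change of −0.01, where 10.4% of all tested genes rose, 9.3% fell and 19.7% changed either way. Off chromosomes 3, 6, 8 and 11, 2 of 48 rose and 2 fell. On those remaining chromosomes except Y, 3.56% to 7.44% of all tested genes of a chromosome rose and 6.22% to 10.4% fell. Centred, 4 of the 68 passed as higher and 3 as lower, where 6.28% and 6.67% of all tested genes did. The difference from the 10 genes was not tested, since those were picked with earlier results of these data known.

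Among other glycolysis enzymes, 14 of 24 were tested, and 2 rose and 1 fell. Bpgm, which makes a bisphosphoglycerate, rose by 1.18 (log2, SE 0.34), and Gapdh by 0.89 (SE 0.29; edgeR, adjusted p = 0.0211). Both are genes of chromosome 6, with centred values of 0.26 for Bpgm and −0.03 for Gapdh. The call of Gapdh was lost when any 1 library was left out (0.81 to 0.96), and that of Bpgm without KO replicate 2 (1.05) or WT replicate 1 (0.83). Eno3, the muscle enolase, fell by 2.81 (SE 0.75; edgeR, adjusted p = 0.00465; centred −2.33), from few counts: 6 and 2 in KO against 27 and 16 in WT. Its call was lost without KO replicate 2 (−2.47). The enzymes that fill the steps between were not called: Gpi1, phosphoglucose isomerase, at 0.37 (edgeR, adjusted p = 0.104), Aldoa, the main aldolase, at 0.14 (adjusted p = 0.553), and Pkm, pyruvate kinase, at 0.29 (adjusted p = 0.136; 0.35 and called without WT replicate 1). With the median of the nearest 50 tested genes removed, Gpi1 (0.48; edgeR, adjusted p = 0.0353) and Pkm (0.41; adjusted p = 0.0410) were called higher. Aldoa (0.27; adjusted p = 0.219) was not. Eno1 was at 0.22 (edgeR, adjusted p = 0.700). Eno1b was counted 600 and 377 times in KO and 406 and 179 times in WT. It was at 0.39 and not called (edgeR, adjusted p = 0.113), but was called higher centred (0.51; adjusted p = 0.0384). Pgk1 had 15 and 8 counts in KO and 13 and 13 in WT, and Pgam1, too low to test, 28 and 7 in KO and 4 and 5 in WT. The sources used here do not give how reads shared by near-identical copies were counted. The values of Gapdh, Pgk1, Pgam1, Eno1 and its copy Eno1b, and of Tpi1, Ldha and Aldoa, which also have processed pseudogenes, are therefore uncertain.

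Of 11 other glucose transporters only Slc2a8 was tested, and it was not called (−0.26; edgeR, adjusted p = 0.645). The others had at most 15 counts in a library. Of 6 tested genes of lactate and pyruvate transport, 1 rose and 1 fell. Emb, an ancillary protein of monocarboxylate transporters, fell by 2.25 (SE 0.29; edgeR, adjusted p = 2.01e-08; centred −2.11), with 16.2 and 16.7 CPM in KO and 81.8 and 74.7 CPM in WT. The KO libraries were level with each other and far below WT. Slc16a1, the lactate transporter MCT1, was at 0.50 (SE 0.19; edgeR, adjusted p = 0.0497; centred 0.02). Its call was lost when any 1 library was left out (0.47 to 0.54).

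Around pyruvate dehydrogenase, 2 of 8 tested genes rose and none fell. Pdp2, a phosphatase that reactivates the enzyme, rose by 1.04 (SE 0.20; edgeR, adjusted p = 5.23e-05) on chromosome 8 and was at 0.53 and not called centred. Pdha1, its E1 alpha subunit, rose by 0.54 (SE 0.16; edgeR, adjusted p = 0.0132; centred 0.57). Without KO replicate 1 Pdp2 was at 0.69 and Pdha1 at 0.54, both not called, and Pdha1 was also lost without KO replicate 2 (0.55) or WT replicate 1 (0.48). Of 3 tested regulators of fructose 2,6-bisphosphate 1 rose: Tigar, a phosphatase that lowers it, by 1.20 (SE 0.18; edgeR, adjusted p = 4.78e-07), on chromosome 6 and at 0.29 centred. Of 7 tested genes of the pentose phosphate pathway, Pgd rose by 0.66 (SE 0.17; edgeR, adjusted p = 0.00418; centred 0.66) and Pgls by 0.67 (SE 0.17; centred 0.15), and none fell. Without KO replicate 1 Pgd was at 0.62 and Pgls at 0.58, neither called.

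Of 25 tested hypoxia response genes 3 rose and none fell, with a median of 0.01, where 10.4% of all tested genes rose. They were Vhl (1.49, SE 0.31), which marks hypoxia-inducible factors for decay, the prolyl hydroxylase Egln1 (1.13, SE 0.37), and the histone demethylase Kdm3a (1.11, SE 0.17). Vhl and Kdm3a lie on chromosome 6 and Egln1 on chromosome 8, and none of the 3 was called centred (0.57, 0.62 and 0.19 for Vhl, Egln1 and Kdm3a). P4hb, a subunit of the collagen prolyl hydroxylase on chromosome 11, was the 1 gene of the list called higher centred (0.55; edgeR, adjusted p = 0.00707; 0.07 as measured), a call lost without KO replicate 1 (0.46). The call of Egln1 was lost without KO replicate 1 (1.11), KO replicate 2 (1.14) or WT replicate 1 (0.71). Hif1a itself was at −0.39 (edgeR, adjusted p = 0.268). A list of the MYC family, MAX, the related MLX factors and their target Txnip had 7 tested genes, of which 2 fell and none rose. Txnip, which restrains glucose uptake and is no MYC family member, fell by 1.62 (SE 0.26; edgeR, adjusted p = 3.52e-06; centred −2.09), with 24.2 and 33.0 CPM in KO and 78.4 and 96.0 CPM in WT. Mycn, the 1 gene of the MYC family called, fell by 0.65 (SE 0.22; edgeR, adjusted p = 0.0259; centred −0.61, adjusted p = 0.0507). Its call was lost without KO replicate 1 (−0.71), KO replicate 2 (−0.60) or WT replicate 2 (−0.54). Myc itself was too low to test, with 7 and 11 counts in KO and 1 and 2 in WT.

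All 10 genes had an RCOR2 peak with its summit within 10 kb of the gene, as did 88.7% of the tested genes with a position. The peaks are the authors' calls on merged ChIP libraries, so each has 1 value and no replicate. Of the 53 peaks near the 10 genes, 32 had a fold enrichment at or above 4.38, the median of the 53366 peaks on chromosomes. The 10 genes had a median of 4 peaks each and all tested genes a median of 2, but the 10 gene intervals were also longer (median 29615 bp against 23471 bp). Slc2a3 had 16 peaks, a number that 0.813% of tested genes reach, but its interval is 74555 bp long. Per 10 kb of the gene with 10 kb on each side, Slc2a3 had 1.69 peaks, fewer than Tpi1 (2.12). The strongest peak of Slc2a3, chr6:122720109-122720655, was 9.64-fold enriched with a −log10 q of 22.6. Its summit lay 7272 bp outside the gene, on the side of Nanog, and was closer to Nanog (chr6:122707489-122714633) than to Slc2a3. A second, chr6:122769931-122771319, lay inside the gene at 9.41-fold. Hk1 had 10 peaks and Hk2 had 7, up to 6.17-fold and 5.30-fold. Tpi1 had 5, none inside the gene and no summit closer than 4952 bp. At the other end, Ldha had 1 peak (3.46-fold) and Pdk1 had 1 (4.38-fold). At most 1 peak was found for 32.3% of tested genes.

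**Figure D5:**
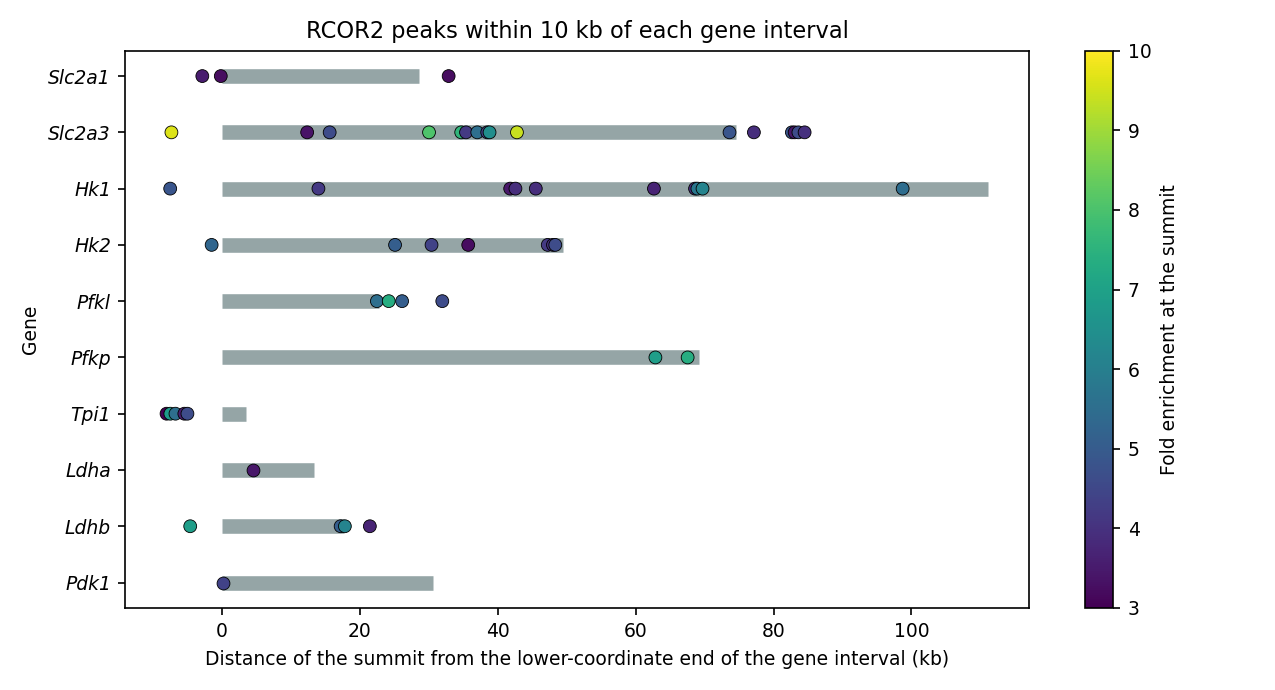
Summits of the RCOR2 peaks within 10 kb of each gene (points), by distance in kb from the lower-coordinate end of the gene interval (grey bar), coloured by fold enrichment. Slc2a3 has 16 peaks up to 9.64-fold, and Ldha and Pdk1 have 1 each.

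At the starts of the genes, RCOR2 peaks overlapped the promoter window (250 bases before to 50 after a start) of 6 of the 9 genes with a RefSeq window: Slc2a1, Hk1, Pfkl, Pfkp, Ldha and Ldhb. Among all tested genes with a window the share was 52.4%. Slc2a3 had no window, so its start was not examined. A summit within 1 kb of a start was found for 5 of the 9 (Slc2a1, Pfkl, Ldha, Ldhb and Pdk1) and for 70.9% of tested genes. Both genes that fell had a peak over the start. That of Ldhb, chr6:142507779-142508237, was 6.17-fold enriched, with its summit 161 bp before the start, and a second summit lay 453 bp after it. That of Pfkp, chr13:6646921-6649051, was 2131 bp wide and 7.35-fold enriched, with its summit 1342 bp inside the gene. Among the genes that rose, Pfkl had summits 351 bp after and 1368 bp before its start (5.52-fold and 7.35-fold). The peak in the window of Slc2a1 was weak, at 3.24-fold, with its summit 117 bp before the start, which it did not reach. Peaks in the window thus occurred in genes of both directions.

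The windows of Pfkp and of the upstream start of Ldha held the most matches among the 5, with 4 and 7. Ldhb held 1 match, Pfkl 1 and Slc2a1 2. In Ldha, 4 of the 7 matches overlap in 2 copies of CACGTG, the palindromic E-box bound by MYC and related factors, each read once on either strand. Over all 12 windows of the 9 genes, 9 held at least 1 match, and 43.8% of the 32851 windows in the RefSeq table did. Both cores contain CpG, and 10 of the 12 windows held 13 to 30 CpG, against a median of 7 over all windows. CACGTG was found in 1 of the 12 windows and in 7.15% of all windows. A window with 3 or more matches was found for Pfkp, for a start of Hk1 (5 matches) and for Ldha, and among 8.93% of all windows. The window of Tpi1 held no match. These letters are a description of the windows and not a record of binding.

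Slc2a3 is also the gene of the 10 nearest to the locus that the study isolated. A pair of TALE proteins was designed to bind the Nanog promoter. The TALE 1 peak (chr6:122707127-122707588, 13.6-fold) had its summit 20466 bp from Slc2a3 and the TALE 2 peak (chr6:122707253-122707576, 9.91-fold) 20363 bp away. No TALE peak had its summit within 10 kb of any of the 10 genes.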

How the data were processed

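Counts per gene symbol were used raw, as the authors deposited them, and the submitters' processing notes list STAR 2.5.2b, Subread, featureCounts and Trimmomatic 0.36, on GRCm38 (mm10). The sources used here do not give the collapsing of molecular identifiers, the strand or the treatment of shared reads. The deposited RCOR2 and TALE peak lists give a fold (ratio to the control at the summit) and a −log10 q per peak; the notes name Bowtie2 2.3.4.1 and MACS2 2.1.1.20160309. These values only describe and filter peaks, down to a −log10 q of 1.31 in the RCOR2 list.

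The test was that of edgeR 4.0.16 under R 4.3.3 (filterByExpr, which kept 10241 genes, TMM scaling, quasi-likelihood test, two-sided, Benjamini-Hochberg over all genes tested). CPM are counts per 1000000 of the TMM-scaled depth. For centring, the median log2 fold change of each chromosome was put into the offset of the KO libraries. Gene positions came from RefSeq GRCm38.p6, which placed 25028 of 25131 rows. A further 26 rows carry a date in place of a symbol and hold 0.136% to 0.158% of the counts. Shares have Wilson 95% intervals, which cover counting error only. The alternatives were DESeq2 1.42.0, limma-voom (limma 3.58.1), other scalings, no filter, the replicate number as a block, each library left out, other centres and other peak windows. The tests were checked on simulated data. The labels do not say that replicates were grown apart. P-values therefore measure the spread between libraries, which may be technical. Replicates differed by more than sampling noise (chi-square over its degrees of freedom 4.22 in KO and 4.78 in WT).

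The 10 genes, the other pathway lists and the markers were chosen with earlier results of these data known. Named genes are the 10, up to 4 called genes per list with the largest change, 7 enzymes of the steps between, and the 2 nearest tested genes on each side. Nanog, Dppa3, Golt1b, Cmas, St8sia1, Atn1, Usp5, Spsb2, Pitrm1 and Dnmt3l were picked among those neighbours after their values were seen. Slc2a8, Pfkm, Eno1b, Hif1a, P4hb, Myc, Sox2, Dppa5a, Eomes and Tfap2c were picked among the lists, also after their values were seen.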

Additional observations from a re-analysis of the deposited data

Results flagged for a closer look

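A TALE 2 peak, chrX:106186791-106187065, lay 35 bp from Pgk1, the glycolytic phosphoglycerate kinase, and had its summit 223 bp from the gene. The TALE peaks are outside the KO and WT comparison. Its fold was 5.71 and its −log10 q 3.92. The list has 1 value per peak and no replicate, and TALE 1 had no peak there.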

How the results depend on the processing

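Over the alternatives to the 10 genes' measured and centred fold changes, 202 values kept their direction and side of the threshold, 25 lost the call, 3 gained it and none changed direction. Slc2a1, Slc2a3, Hk2 and Tpi1 were called in all 11 alternatives, Hk1 in none, and Pfkl in 5. Centred, Slc2a1, Slc2a3, Tpi1 and Ldhb were called in all 12. With 1 library left out, the lone library of a group is taken to vary like the other group. Of the 10 genes, 4 (without KO replicate 2) to 6 were then called higher in place of 7, and 1 to 2 lower. Centred, 3 to 5 were higher and 1 to 2 lower, the second being Pfkp without WT replicate 1. Of the other pathway genes 4 to 10 were higher in place of 11 and 2 to 6 lower in place of 4. DESeq2 called 0 of the 10 genes lower and 7 other pathway genes higher; the cause was not tested. Across all genes DESeq2 called 1156 in place of 2014, and edgeR 1130 and 1126 without KO replicate 1 and 2. The centred counts over all genes were 1326 with edgeR, 664 with DESeq2, and 664 and 678 without KO replicate 1 and 2. The share differences were −1.95 (Slc2a3) and −0.453 (Hk2) points with chromosome medians removed, and −13.2 (Pfkp) with Pfkm counted. Centred Gapdh changed sign without a library (−0.118 to 0.0678; positive without KO replicate 2 or WT replicate 1), and so did centred Bpgm (−0.0833 without WT replicate 1, up to 0.586), all uncalled.

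Same-numbered KO and WT libraries did not deviate together (correlation −0.0533), and the main fit did not pair them. This correlation cannot show whether they were prepared together. With the replicate block, 7 of the 10 genes were higher and 2 lower, and centred 5 and 1, where Pfkl lost its call (edgeR, adjusted p = 0.0517). The block called 1822 genes in all.

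Peaks with a −log10 q of at least 5, or a fold of at least 5, left 7 of the 10 genes with a peak within 10 kb (70.0% and 57.0% of tested genes), and a 1 kb window left 9 (80.3%).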
